A study of Arabidopsis thaliana with 8 samples.

Results

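The genes described here are 10 Arabidopsis thaliana genes of brassinosteroid synthesis, inactivation and signalling. They were chosen by function from a list of loci, with earlier results of these data known. They were found on the array through the RefSeq transcript that each probe names. The array held 25410 named genes; all 10 loci were among them, with 20 probes, and all 10 passed the filter on dim probes, as did 19609 genes in all. Transcripts of Col0 stems that were 10 cm long were measured on 8 single-colour Agilent arrays. The 4 control arrays hold the double mutant nst1-1 nst3-1, called nst1 nst3, mutated in a pair of NAC factors known as switches of fiber secondary walls. The 4 transgenic arrays hold that double mutant plus the transgene NST3pro:CEF2-VP16:HSP, so that every plant measured carries both mutations. These are the CEF2-VP16 nst1 nst3 stems. In the construct the NST3 promoter, known for its activity in fibers, drives a fusion of the AP2/ERF factor CEF2, named ERF035 in the series' design text, with the activation domain VP16. The labels give neither the number of plants behind a sample nor whether several transgenic lines were used, and each p-value therefore reflects the spread among these samples alone, which could be technical. The title of the series places the comparison in a study of thickened primary walls made by fibers of the double mutant.

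Brassinosteroids are plant steroid hormones that promote cell elongation and vascular development, and mutants that cannot make or sense them have short, dwarfed stems. They are built from the sterol campesterol by a reductase, DET2, and a series of cytochrome P450 enzymes, of which DWF4, CPD, ROT3, BR6OX1 and BR6OX2 are members, and BAS1 inactivates them by hydroxylation. The hormone is sensed at the cell surface by the receptor kinase BRI1, and the signal ends at BZR1 and BES1, a closely related pair of transcription factors. In seedlings these factors are known to repress the synthesis genes, a feedback loop, and to activate genes of growth and wall loosening.

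The arrays had a 75th percentile of 2344 to 3642 signal units, and 30294 to 32387 of 43603 probes on an array were well above background. All control arrays lay on 1 slide and all transgenic arrays on a second one, and an effect of the slide cannot be told apart from the genotype. The level of a gene is given below as log2 of the ratio of its signal to the 75th percentile of that array, from the brightest probe of the gene, and a difference is transgenic minus control on that scale. The median of all genes was 0.03 higher in the transgenic group on this scale and 0.39 lower (-0.39) when the arrays were scaled on Agilent's spike-in probes, so each change below is relative to the 75th percentile. The value with spike-in scaling is given where it changes the call of one of the 10 genes. AT3G60490, the locus taken here as ERF035 although the gene table gives it no symbol, was 7.72 ± 0.68 (SE, n = 4 per group) higher with the construct, and no control array reached the transgenic range. Probes of both mutated genes were well above background on all 8 arrays: NST3 read 0.71 ± 0.41 (SD, n = 4) in the controls and 0.19 ± 0.27 with the construct, and NST1 -3.07 ± 0.35 and -3.60 ± 0.42. Neither difference passed (limma), though both did with spike-in scaling (-0.96 each); which part of a transcript a probe covers is not known here, so these levels do not check the mutations. KNAT1, a homeobox gene of the stem, and the secondary wall genes CESA4, CESA7 and CESA8 were well above background on all 8 arrays, whereas the floral genes AG and AP3 were not on any array; PI, another floral gene, was on all 8.

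Among the brassinosteroid genes the largest changes were rises of the genes for the last synthesis steps. Of the 6 synthesis genes, 5 rose with the construct, by 1.29-fold to 8.14-fold, while the inactivation gene did not pass and 1 of the 3 signalling genes fell by a small amount. In all, 5 of the 10 genes were higher and 1 was lower (limma, Benjamini-Hochberg adjusted p under 0.05 over all 19609 genes). Of all genes tested 29.5% were higher and 24.8% lower, so 5 and 1 of 10 stand against a transcriptome in which 54.2% of genes passed. Groups without overlap were found for 5 of the 10, against 50.7% of all genes. The median change of the 10 was 0.09, against 0.03 over all genes. With spike-in scaling 3 of the 10 were higher and 5 lower, beside 2129 higher and 7845 lower of all genes, where the 75th percentile gave 5776 and 4858. ROT3, BR6OX1 and BR6OX2 were higher under every processing alternative that measured them.

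**Figure D1:**
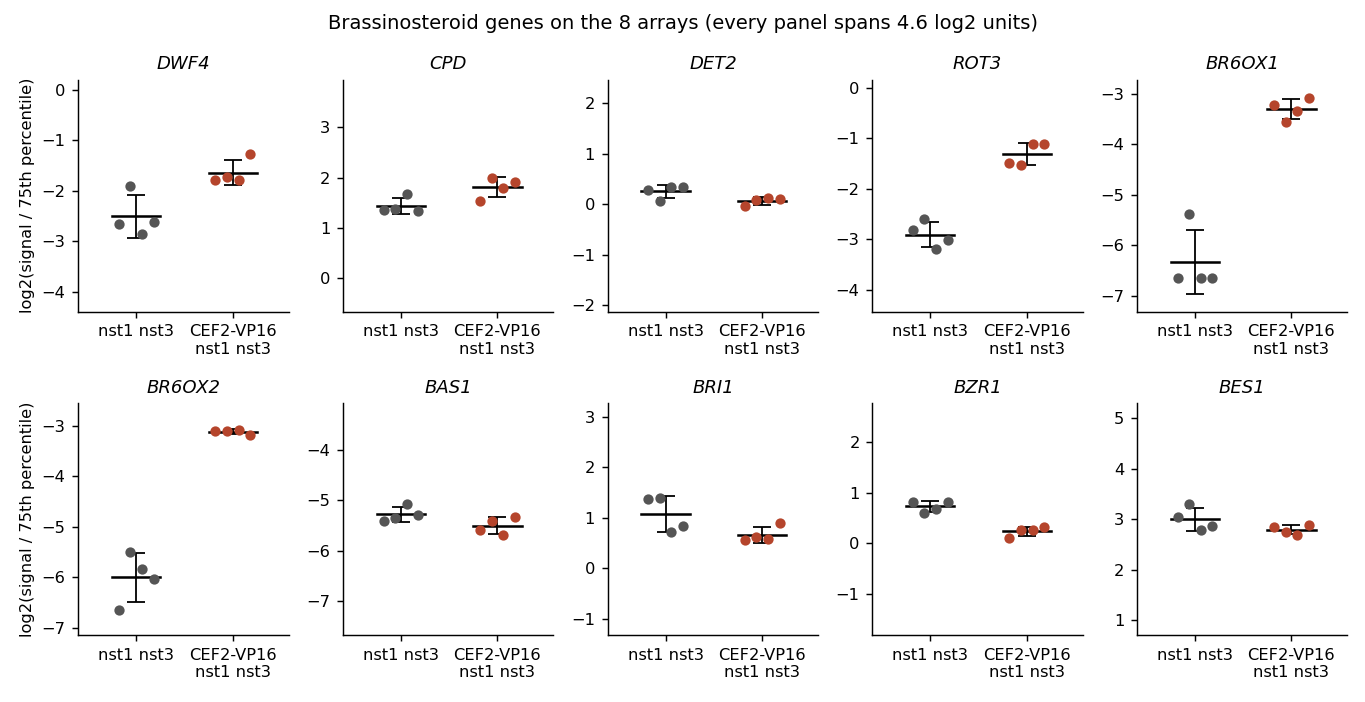
Level of each brassinosteroid gene (log2 ratio to the 75th percentile) on each array, grey for nst1 nst3 and red for CEF2-VP16 nst1 nst3, with the group mean as a line and the standard deviation as a bar (n = 4 per group). The groups lie apart for DWF4, ROT3, BR6OX1, BR6OX2 and BZR1 and overlap for the other 5 genes; panels have their own level but the same span.

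The final oxidations of the pathway belong to BR6OX1 and BR6OX2, P450 enzymes of the CYP85A family, of which BR6OX2 also makes brassinolide, the most active form. BR6OX2 (AT3G30180) gave values of -6.64, -5.50, -5.84 and -6.04 in controls 1 to 4. On transgenic arrays 1 to 4 it read -3.09, -3.09, -3.08 and -3.19. The transgenic values lay within 0.11 of each other and 2.31 above the highest control value, that of control array 2. BR6OX2 rose by 2.89 ± 0.22 (SE; 7.43-fold; limma adjusted p = 7.16e-05; exact two-sided permutation p = 0.0286, the smallest that 4 arrays against 4 allow). Its dimmer second probe rose by 2.31 ± 0.17 (limma adjusted over all probes), with all 4 control values at the floor of the scale, -6.64. That probe passed the filter through the transgenic arrays, and the floor removes the spread of its control values and so narrows its SE. With spike-in scaling BR6OX2 rose by 2.47, and with normexp background correction by 1.85. The normexp setting adds an offset of 50 signal units, which shrinks log2 differences of dim probes.

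BR6OX1 (AT5G38970) was close to the limit of detection without the construct. Only control array 2 showed it well above background, where it read -5.38, and lay at the floor of -6.64 on control arrays 1, 3 and 4. On the transgenic arrays it was well above background throughout and read -3.22, -3.55, -3.35 and -3.08. The fitted rise of 3.03 ± 0.29 (SE; 8.14-fold; limma adjusted p = 0.000164; exact permutation p = 0.0286) therefore depends on the floor, and was 4.85 with a floor of 0.001 in place of 0.01, 4.78 with scaling by the array median, which also lowers the floor, and 4.87 in the authors' value table. The smallest value over the alternatives, with normexp background correction and its offset of 50 units, was 2.40. BR6OX1 passed the filter on dim probes through the transgenic arrays, where it is high, so its call is not independent of that filter.

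ROT3 (AT4G36380) encodes the P450 CYP90C1, a C-23 hydroxylase whose loss gives rounded leaves. It read -2.82, -2.60, -3.19 and -3.02 on the control arrays and -1.48, -1.53, -1.12 and -1.12 on the transgenic arrays, so the groups were 1.07 apart at their nearest. ROT3 rose by 1.60 ± 0.16 (SE; 3.03-fold; limma adjusted p = 0.000177), between 1.50 and 1.70 without any 1 array and 1.16 with spike-in scaling. CYP90D1 (AT3G13730), its relative that acts at the same step, read 1.23 ± 0.31 (SD, n = 4) without the construct and 1.11 ± 0.19 with it and did not pass (-0.12 ± 0.17, SE; limma adjusted p = 0.566). The change of ROT3 exceeded that of CYP90D1 by 1.72, in a within-array comparison that no scaling of the array affects, and the groups were apart (exact permutation p = 0.0286, or 0.0571 adjusted over 4 gene pairs that were chosen after their values were seen).

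DWF4 (AT3G50660), the C-22 hydroxylase regarded as the rate-limiting enzyme of the pathway, rose less. It read -2.65, -1.90, -2.86 and -2.62 on the control arrays and -1.78, -1.72, -1.78 and -1.27 on the transgenic arrays. Control array 2 came within 0.11 of the lowest transgenic array, and the other 3 control arrays lay lower. The rise was 0.87 ± 0.22 (SE; 1.83-fold; limma adjusted p = 0.0112; exact permutation p = 0.0286). The second DWF4 probe gave 1.00 ± 0.26 and passed too. Without control array 2 the rise was 1.07, and with spike-in scaling it was 0.43 and did not pass (limma adjusted p = 0.111).

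CPD (AT5G05690), a P450 that acts next to DWF4, was at the edge of the test. It read 1.36, 1.37, 1.68 and 1.34 on the control arrays and 1.54, 1.99, 1.80 and 1.90 on the transgenic arrays. Control array 3 lay above the lowest transgenic array, and the groups overlapped. The difference was 0.37 ± 0.12 (SE; 1.29-fold; limma adjusted p = 0.0352; exact permutation p = 0.0571). Of the 8 fits with 1 array removed, 6 lost the call, those without control array 1, 2 or 4 or transgenic array 2, 3 or 4, where the limma adjusted p lay between 0.0664 and 0.0936. The second CPD probe read 0.30 and did not pass, and with spike-in scaling the sign turned, to -0.07. DET2 (AT2G38050), the steroid 5-alpha-reductase of the pathway, was the synthesis gene without a call. It read 0.27, 0.07, 0.34 and 0.34 on the control arrays, then -0.05, 0.09, 0.11 and 0.10 on the transgenic arrays, with control array 2 inside the transgenic range. The difference was -0.19 ± 0.09 (SE; limma adjusted p = 0.107; 95% interval -0.39 to 0.02), and it passed without control array 2 (-0.25) and with spike-in scaling (-0.62).

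BAS1 (AT2G26710), the P450 CYP734A1 that hydroxylates brassinosteroids to inactive forms and is itself induced by the hormone in seedlings, was dim on every array. It read -5.41, -5.35, -5.06 and -5.29 on the control arrays and -5.59, -5.41, -5.69 and -5.32 on the transgenic arrays. The groups overlapped, with a difference of -0.22 ± 0.11 (SE; limma adjusted p = 0.132; 95% interval -0.49 to 0.04). With spike-in scaling BAS1 read -0.66 and passed. The change of BR6OX2 exceeded that of BAS1 by 3.12 within arrays (exact permutation p = 0.0286, or 0.0571 adjusted over the 4 pairs), and the groups were apart for this ratio.

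**Figure D2:**
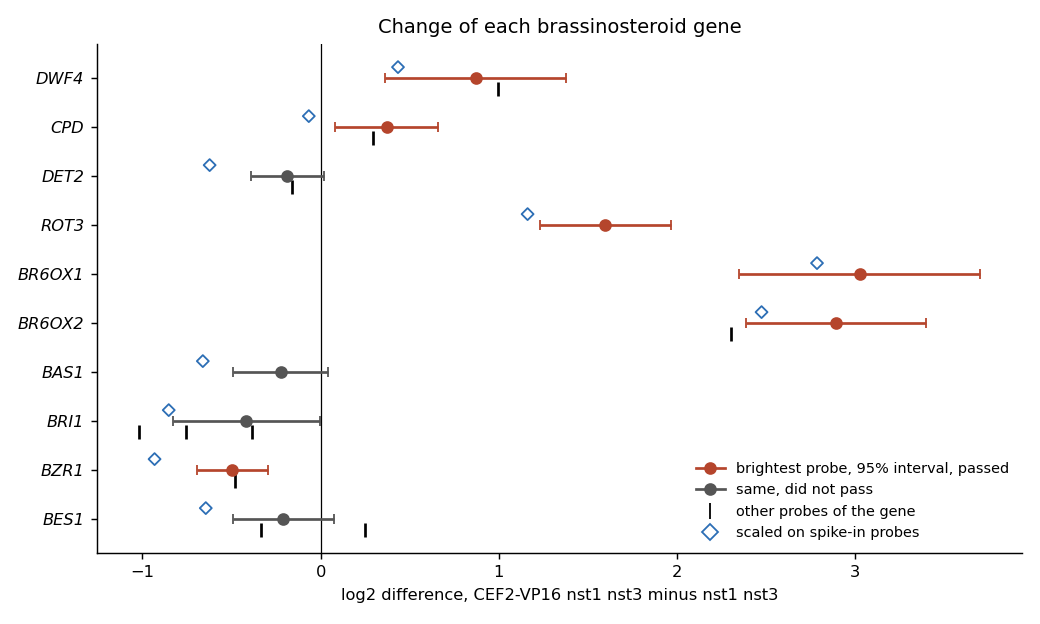
Log2 difference between CEF2-VP16 nst1 nst3 and nst1 nst3 for each brassinosteroid gene: circles give the brightest probe with its 95% interval from limma (red where the test passed), ticks the other probes of the gene and open diamonds the value after scaling on spike-in probes. BR6OX1, BR6OX2 and ROT3 lie above 1 by every measure shown, and the diamonds of DET2, BAS1, BRI1, BZR1 and BES1 all lie under -0.5.

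The signalling genes moved the other way or did not pass. BZR1 (AT1G75080), the transcription factor that binds the promoters of the synthesis genes, read 0.82, 0.61, 0.68 and 0.83 on the control arrays and 0.11, 0.27, 0.26 and 0.32 on the transgenic arrays. Every transgenic value lay under every control value, by 0.29 at the nearest. BZR1 fell by 0.50 ± 0.09 on the log2 scale (SE; 1.41-fold lower; limma adjusted p = 0.00197; exact permutation p = 0.0286), and its second probe gave -0.48 with the same call. In the authors' value table, which does not scale the arrays within a group, the difference was -0.48 and did not pass (limma adjusted p = 0.0624), and with spike-in scaling it was -0.93.

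BES1 (AT1G19350) read 3.05, 3.30, 2.79 and 2.86 without the construct and 2.85, 2.75, 2.69 and 2.88 with it. These ranges overlapped, and the difference of -0.21 ± 0.12 did not pass (SE; limma adjusted p = 0.181; 95% interval -0.49 to 0.07). Its other probes read -0.33 and 0.25, and neither passed; the latter names a different transcript of the gene. The fall of BZR1 exceeded that of BES1 by 0.29, within the spread between arrays (exact permutation p = 0.143), so the data do not separate the responses of the pair, and probes of such close relatives may bind each other's transcripts. With spike-in scaling BES1 read -0.64 and passed.

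BRI1 (AT4G39400), the receptor kinase, read 1.38, 1.39, 0.71 and 0.84 without the construct, in array order, and 0.56, 0.61, 0.58 and 0.90 with it. Control arrays 1 and 2 stood above all transgenic arrays, and control arrays 3 and 4 did not. The brightest probe differed by -0.42 ± 0.18 (SE; limma adjusted p = 0.0802), which did not pass, although it did without control array 3 (-0.54; limma adjusted p = 0.0280). Of its 3 dimmer probes 2 passed among all probes, with -1.02 ± 0.24 and -0.76 ± 0.19 (limma adjusted p = 0.00870 and 0.0124), and the dimmest read -0.39. All 4 probes thus read lower with the construct, and the mean of the 4 passed at -0.64 (limma adjusted p = 0.0155), as did the brightest one with spike-in scaling, at -0.85. The 3 dimmer probes lay near the floor, with transgenic means of -5.67, -5.84 and -6.64. The dimmest was well above background on 2 transgenic arrays, which limits what these probes and the mean add. Of the 20 probes of the 10 genes, 7 were higher and 4 lower, against 27.0% and 23.8% of the 31899 probes tested.

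Upstream, the genes that supply sterols to the pathway were higher rather than lower. Of 18 listed genes from HMG-CoA reductase to DWF1, all measured, 13 were higher and 0 lower, beside 29.5% and 24.8% of all genes, and the median was 0.57 beside 0.03. The sterol methyltransferase gene SMT1 (AT5G13710) rose by 1.27 ± 0.20, FPS1 (AT5G47770), which makes farnesyl diphosphate, by 0.99 ± 0.17, DWF1 (AT3G19820), the reductase that forms campesterol, by 0.98 ± 0.16 and CPI1 (AT5G50375), a cyclopropyl sterol isomerase, by 0.83 ± 0.11 (SE, n = 4 per group). Spike-in scaling left 3 of the 18 higher and none lower, namely SMT1 (0.84), FPS1 (0.55) and DWF1 (0.54), with a median of 0.14 against -0.39 over all genes, and turned the sign of HMG1 and DWF5. CPI1 then read 0.40 and did not pass. HMG1 (0.38) lost its call in 6 of the 8 fits without 1 array (control array 1, 3 or 4, transgenic array 2, 3 or 4) and DWF5 (0.28) in 7, all but that without control array 1.

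Of 7 other genes of synthesis and its regulation 6 were measured, of which 1 rose and 1 fell, no larger a share than among all genes. AT1G29160, listed as a regulator but without a symbol in the gene table, rose by 1.73 ± 0.28, and PIF5 (AT3G59060), a growth-promoting bHLH factor, read -0.28 ± 0.07 with a call. TCP1 (AT1G67260), known as an activator of DWF4, varied too much between arrays to be read, with values of -6.37 to -1.10 without the construct and -5.04 to -1.52 with it. Of 6 other inactivation genes 4 were measured, none rose and 2 fell, beside 29.5% higher and 24.8% lower of all genes. UGT73C5 (AT2G36800) and UGT73C6 (AT2G36790) are near-identical glucosyltransferases, and binding of a probe to both transcripts was not tested. UGT73C5 read -1.10 ± 0.37 and lost its call without control array 1, 3 or 4 or transgenic array 3 or 4. UGT73C6 was not well above background on any transgenic array, and all its transgenic values lay at the floor, while UGT73C5 read -2.68 to -1.69 on those arrays. UGT73C6 read 1.76-fold lower with the construct (limma adjusted p = 0.0111), with the control mean set against the floor. UGT73C6 passed the filter through the control arrays alone, so this p-value is not independent support. The size holds for this processing only, as UGT73C6 read -0.41 with normexp correction, whose offset shrinks differences of dim probes.

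**Figure D3:**
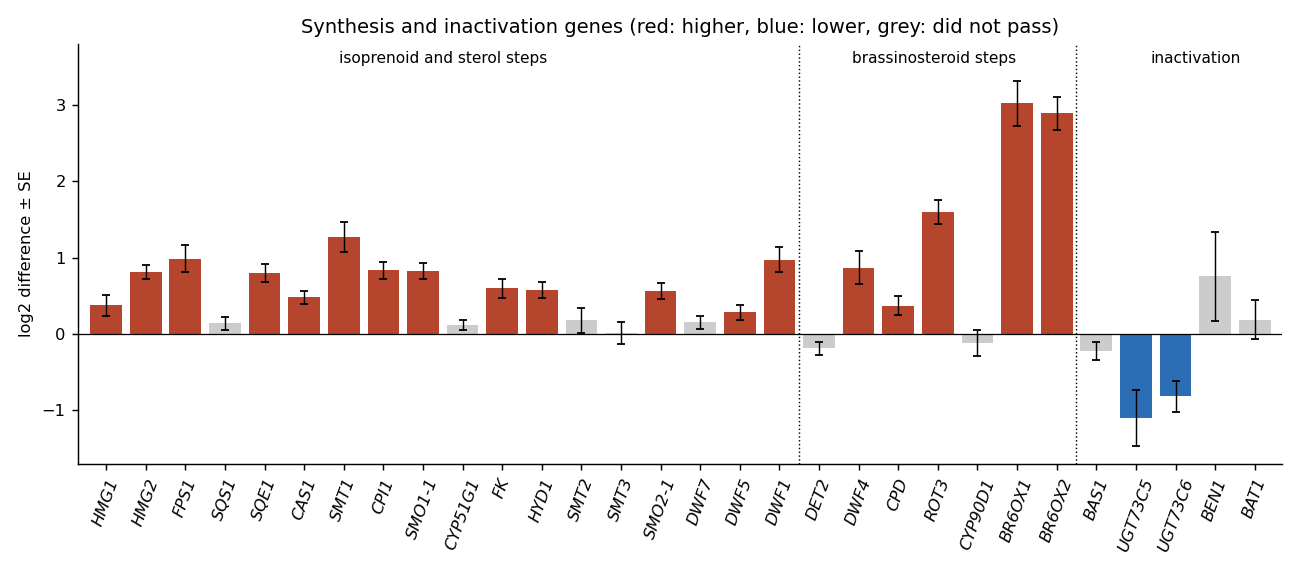
Log2 difference with its standard error (CEF2-VP16 nst1 nst3 minus nst1 nst3, n = 4 per group) for genes of sterol supply, brassinosteroid synthesis and inactivation that were measured, in the rough order of the route. Red bars passed as higher and blue bars as lower, with BR6OX1 and BR6OX2 at about 3 and the sterol genes between 0.01 and 1.27.

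Between the receptor and the transcription factors the listed genes went both ways, as did all genes tested (29.5% higher, 24.8% lower). Of 10 receptors, co-receptors and their partners 4 rose and 4 fell, with a median of -0.13. BRL2 (AT2G01950, also VH1), a BRI1-like kinase of provascular cells, rose by 1.77 ± 0.12, SERK1 (AT1G71830), a co-receptor, by 1.35 ± 0.17 and BKI1 (AT5G42750), an inhibitor that holds BRI1 inactive, by 1.21 ± 0.23. BRS1 (AT4G30610), a carboxypeptidase, rose by 2.03 ± 0.27 from control values that all lay at the floor (4.01 in the authors' value table). It passed the filter through the transgenic arrays. By contrast the co-receptor BKK1 (AT2G13790) fell by 2.34 ± 0.24, and its relatives SERK2 (AT1G34210) and BAK1 (AT4G33430) fell by 0.54 ± 0.12 and 0.51 ± 0.10. BRL3 (AT3G13380) read -0.58 ± 0.21 and kept its call in 1 of the 8 fits without 1 array, that without control array 2. BKK1 read 4.07, 3.64, 2.86 and 3.49 in the controls and 1.35, 1.34, 0.99 and 1.03 with the construct, so the groups were far apart. BAK1, BKK1 and BRL2 also act outside brassinosteroid signalling, the first 2 in immunity.

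Of 22 kinases and phosphatases 19 were measured, 6 rose and 4 fell, with a median of -0.01, shares near those of all genes. These counts rest on the brightest probe. Dimmer probes of SBI1 (AT1G02100; -0.42 to -0.70) and BSL2 (AT1G08420; -0.25 and -0.56) were called lower, although neither gene was counted. In turn the dimmer probes of BIL1 (AT2G30980), counted as higher, did not pass. BIN2 (AT4G18710), the GSK3-like kinase that inactivates BZR1 and BES1, rose by 0.75 ± 0.14, while its family member ATSK13 (AT5G14640) fell by 1.27 ± 0.10 and ATSK12 (AT3G05840) by 0.46 ± 0.09. The receptor-associated kinases BSK2 (AT5G46570) and BSK5 (AT5G59010) rose by 0.88 ± 0.09 and 0.77 ± 0.13, and AT5G03470, a regulatory subunit of protein phosphatase 2A, by 0.79 ± 0.15. BSL3 (AT2G27210), a phosphatase, read -0.57 ± 0.12, and the kinase CDL1 (AT5G02800) read -0.38 ± 0.12 with a call that 5 of the 8 fits without 1 array lost (control array 3 or 4, transgenic array 1, 3 or 4). Scaling on the spike-ins gave 0 higher and 9 lower of the 19, and BIN2 (0.31), BSK2 (0.45), BSK5 (0.33) and AT5G03470 (0.35) did not pass. Of the falls named in these pathway groups, those of PIF5, UGT73C5, SERK2, BAK1, BRL3, BSL3, ATSK12, CDL1 and BEH4 did not pass in the authors' value table.

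Of 15 relatives and partners of the transcription factors 4 rose and 2 fell, with a median of -0.05, no larger shares than the 29.5% and 24.8% of all genes. AIF1 (AT3G05800), a bHLH-type protein known to repress brassinosteroid growth responses, read -4.72, -3.06, -4.43 and -3.68 in the controls and -0.67, -0.44, -0.79 and -0.08 with the construct, a rise of 3.48 ± 0.36. HAT1 (AT4G17460), a homeodomain partner of BES1, rose by 2.24 ± 0.25, BEH1 (AT3G50750), a BES1 homolog, by 0.86 ± 0.23 and MYBL2 (AT1G71030), a repressor that cooperates with BES1, by 1.09 ± 0.38. MYBL2 lost its call in 5 of the 8 fits without 1 array (control array 4 or any transgenic array), and without control array 1 it rose by 0.73. IBH1 (AT2G43060), another bHLH-type repressor of growth, read -0.64 ± 0.18 and BEH4 (AT1G78700) -0.31 ± 0.08, both with a call. The other IBH1 probe read -0.21 and did not pass. Spike-in scaling left 2 of the 15 higher, AIF1 and HAT1, and made 7 lower, while BEH1 (0.43) and MYBL2 (0.66) did not pass.

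**Figure D4:**
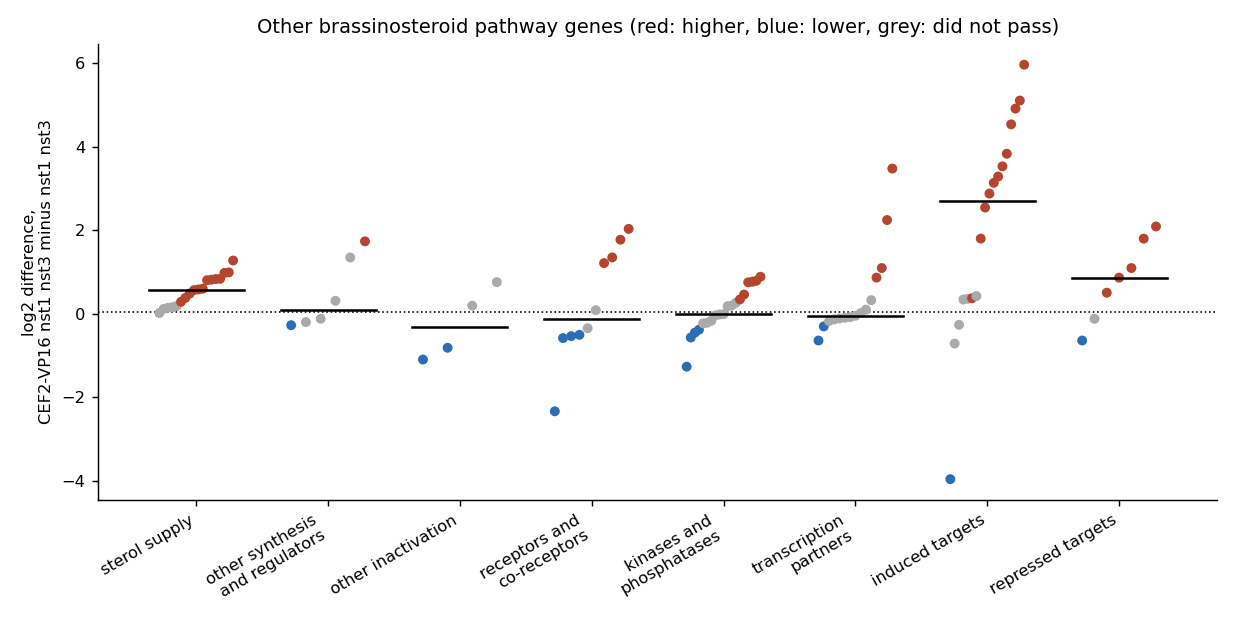
Log2 difference (CEF2-VP16 nst1 nst3 minus nst1 nst3) of each measured gene of 8 lists, red where higher, blue where lower and grey where the test was not passed, with the list median as a bar and the median of all genes (0.03) as a dotted line. The induced targets have the highest median, 2.71, and hold both EXPA8 at 5.96 and TCH4 at -3.97.

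Genes known to respond to brassinosteroids in seedlings were compared as a readout. Of 18 genes known to be induced by the hormone, 12 rose and 1 fell, beside 29.5% and 24.8% of all genes, with a median of 2.71. Of 7 genes known to be repressed by it, which leave out the 6 synthesis genes among the 10 but hold CYP90D1, 5 rose as well and 1 fell, with a median of 0.86. Most genes of both lists thus passed in the same direction, with spike-in scaling 11 of 18 and 2 of 7. Among the induced genes the bHLH-type growth gene PRE1 (AT5G39860) read -6.50, -2.98, -6.01 and -4.62 in the controls and between -0.86 and -0.16 with the construct, a rise of 4.54 ± 0.70. The wall genes EXPA8, XTH4 and EXPA5 rose by 5.96 ± 0.91, 5.11 ± 0.85 and 4.91 ± 0.63, and TCH4, a xyloglucan-modifying gene that also responds to touch, fell by 3.97 ± 0.56. Many of the induced genes respond to auxin too, and EXPA8, XTH4, EXPA5 and TCH4 were listed with their changes in these data already known. Of the 14 others 9 rose and 0 fell, with a median of 2.17. The 9 include BEE3 (AT1G73830), well above background on 1 control array and on all 4 transgenic arrays. BEE3 passed the filter through the arrays where it is high, so its call is not independent of that filter. SAUR15 (AT4G38850), also among the 9, lay at the floor on control arrays 1 and 4. The whole list was chosen with earlier results of these data known, so these 14 are not an independent selection either.

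Among the repressed genes the GATA factor GATA4 (AT3G60530) rose by 2.09 ± 0.14. GATA2 (AT2G45050), a factor of light-grown seedlings, was not well above background on any control array. On this scale it was at least 3.47-fold higher with the construct (limma adjusted p = 0.000268), with the transgenic mean set against the floor. GATA2 passed the filter through the transgenic arrays alone and its control values all lay at the floor, so this p-value is not independent support. GLK2 (AT5G44190), a regulator of chloroplast genes, rose by 0.86 ± 0.29 but lost its call in 6 of the 8 fits without 1 array (control array 1 or 2 or any transgenic array) and with spike-in scaling (0.43). MYBL2, given above, is on this list too. IBH1 was the gene of this list that fell, by its brighter probe, and with the mean of a gene's probes 0 of the 7 fell. CYP90D1 did not pass. Whichever transgenic array was left out, 3 of the 7 genes rose, and with no filter on dim probes also 3.

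Other listed genes changed between the groups too. Their counts stand beside 29.5% higher and 24.8% lower of all genes, and these lists were also chosen with earlier results known. The summed signal of 10 touch and stress genes, as multiples of the 75th percentile, ran from 95.9 to 361 over the control arrays, with array 3 the lowest, and from 9.60 to 29.8 over the transgenic arrays, and all 10 genes fell. That of 5 epidermis genes was 9.77 to 41.8 without the construct, with control array 2 the highest, and 57.0 to 82.3 with it, and 4 of the 5 rose. CER1, a wax synthesis gene, makes up most of this sum. Its rise of 1.94 ± 0.53 (SE) was the 1 epidermis call of 4 that spike-in scaling kept (1.51), and ATML1 then turned sign (-0.0089). In the authors' value table CER1 and PDF2 passed. That of 3 xylem vessel genes ran from 14.3 to 29.4 and from 30.8 to 35.5, and that of 2 cambium genes from 1.37 to 1.71 and from 3.04 to 4.01, and all 5 rose, of which XCP1, PXY and WOX4 also passed with spike-in scaling. The secondary wall genes CESA4, CESA7 and CESA8 summed to 6.40 to 10.3 without the construct and 12.0 to 15.2 with it, and 3 photosynthetic genes to 479 to 668 and 619 to 841. All 6 rose, and 0 of the 6 passed with spike-in scaling. With quantile normalization 0 of the 3 photosynthetic genes passed, and LHCB1.1 and LHCB1.3 each lost their call in 6 of the 8 fits without 1 array. The summed signal of 3 phloem genes was 18.1 to 18.3 without the construct and inside the transgenic range, whose lowest value was 16.6. The sucrose carrier gene SUC2, which did not pass (-0.15), makes up most of that sum, while SEOR1 rose by 0.63 ± 0.14 and APL read -0.36 ± 0.09, with a call and groups apart for both. Of these 2 phloem calls 1 was kept with spike-in scaling and 1 in the authors' value table. The part of these genes and their tissues in the brassinosteroid results was not tested, and in whole stems a smaller share of cells of a type and less RNA per cell cannot be told apart. Control array 2 was the control array nearest to the transgenic arrays for BR6OX1, BR6OX2, DWF4, ROT3 and PRE1. Without control arrays 2 and 3 together 5 of the 10 genes were higher and 1 was lower, as with all arrays.

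The genes whose profiles over the 8 arrays lay nearest to that of BR6OX1, by the Euclidean distance of mean-centred log2 levels, were AT3G52630 (RPA3A; 0.26), DUT1 (AT3G46940; 0.38) and ICS2 (AT1G18870; 0.38). The last 2 rose by 2.78 and 2.97. Control values at the floor shape the profile of BR6OX1, and that limits what a short distance to it says. Of the brightest probes that of BZR1 had the largest fall, although BRI1 fell more by the mean of its probes. The profiles nearest to BZR1 were those of AT5G53220 (0.14), AT5G59830 (0.17) and AT4G33890 (0.17), which read -0.46, -0.45 and -0.58.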

How the data were processed

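The authors' scanner files hold, per the file headers, spot intensity values extracted with Agilent Feature Extraction 11.5.1.1; the submitters' processing notes name version 9.1.3.1. Labelling with Cy3 started from 200 ng of RNA, per the labels. The deposited processed signal is an intensity already corrected for background. The value table that the authors deposited is on a natural log scale, and was set against the processed signal: each column was its natural log minus a constant of 7.39 (controls) or 7.15 (transgenic), so array brightness was not removed within a group; the origin of the constants is unknown.

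From the processed signal, control spots and outlier spots were left out (unless every spot of the probe was so marked), spots of a probe averaged, the signal divided by its 75th percentile on that array (43603 probes), floored at 0.01 (-6.64 in log2) and logged. Probes well above background on at least 4 of 8 arrays were kept. RefSeq accessions named 34348 probes through the gene table of assembly TAIR10.1, and the brightest probe stood for a gene. Where the array's build (TAIR10) and that table differ, no coordinates are given. Tests used limma 3.58.1 (lmFit, eBayes) in R 4.3.3 on all 19609 genes, with Benjamini-Hochberg adjustment, and were tested on simulated data; single values had an exact two-sided permutation test over 70 assignments. The mean spot signal was not among the columns, so normexp used median signals, with an offset of 50 signal units.

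The 10 genes and all lists were chosen with earlier results of these data known. The text names the 10 genes, up to 4 rising and 4 falling called genes of each pathway list, the 3 nearest profiles to the member with the largest rise and to that with the largest fall, and the gene of the construct. CYP90D1, TCP1, HMG1, DWF5, SBI1, BSL2, BIL1, BEE3, SAUR15 and single marker genes were named after their values were seen. Precision is limited by having 4 arrays in each group. The promoter motif counts that had been planned were not run.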

Additional observations from a re-analysis of the deposited data

Results flagged for a closer look

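In 6 of 20 groups of 4 arrays, 2 for each of the 10 genes, 1 array stood apart from the other 3 by Dixon's criterion at 95%; chance flags about 1 group in 20. In the controls these were BR6OX1 on array 2 (-5.38, the other 3 at the floor, where the criterion has little meaning) and CPD on array 3 (1.68). In the transgenic group they were DWF4 on array 4 (-1.27), DET2 on array 1 (-0.046), BR6OX2 on array 4 (-3.19) and BRI1 on array 4 (0.90). The BR6OX2 value stands apart because the other 3 arrays were nearly equal. Without transgenic array 4 DWF4 rose by 0.75 and BRI1 read -0.49, and without control array 3 CPD rose by 0.45.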

How the results depend on the processing

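Over 21 alternatives, counts of calls kept within 1.5 times in 73 of 84 cases. With spike-in scaling 2129 genes were higher and 7845 lower, and 3 of the 10 brassinosteroid genes were higher and 5 lower. The authors' value table gave 2981 lower genes and 0 of the 10. The count of lower brassinosteroid genes was 2 with normexp correction and with the mean of a gene's probes, and 3 with array weights. Leaving out each array gave 4894 to 5914 higher and 4105 to 5434 lower genes, and 4 to 5 higher and 1 to 2 lower of the 10. Signs turned for CPD with spike-in scaling (-0.066), for DET2 and BAS1 with normexp (0.044 and 0.017) and for BES1 on 1 probe (0.25), none of which passed. The replicate numbers did not pair the arrays: same-numbered deviations correlated at -0.04, -0.20, 0.16 and -0.40. With the replicate block 4715 genes were higher and 3904 lower, 4 of the 10 were higher and 1 lower, and CPD lost its call (limma adjusted p = 0.0707). Signals near the floor limit BR6OX1, BR6OX2, BAS1, BRS1, GATA2, UGT73C6, BEE3, SAUR15 and the dimmer probes of BRI1.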
